A study of Mus musculus with 4 samples.

Results

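Abca2, Abca3, Abca8a, Abcb1a, Abcb8 and Abcg3 are 6 genes of the ATP-binding cassette (ABC) transporter family that were measured in brown adipocytes with and without NT-PGC-1α, the short N-terminal splice form of the transcriptional coactivator PGC-1α. They were chosen by probe number from the study's own list of probes that differed between these same arrays, and every other probe that carried 1 of their gene identifiers was added. This gave 7 of the 33012 probes on the array, 1 for each gene and a further probe for Abca3. The direction and size of the change at the 6 listed probes are therefore what selected them, and their values are given as a description with no test. The further Abca3 probe was taken by its identifier alone. In cells with NT-PGC-1α the signals of Abcg3, Abcb8, Abca3 and Abca2 were higher, by 3.43-fold, 2.49-fold, 1.86-fold and 1.65-fold. Those of Abca8a and Abcb1a were lower, by 10.5-fold and 2.69-fold. The further probe of Abca3 was 1.18-fold lower, a difference about as large as that between arrays of the same pool. It thus did not share the increase of the listed one.

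The cells were immortalized brown preadipocytes of FVB mice that had been transduced with lentivirus carrying either hemagglutinin-tagged NT-PGC-1α or the empty vector, called the control below. Both groups were induced for 2 days with a cocktail of insulin (20 nM), isobutylmethylxanthine (0.5 mM), indomethacin (250 µM), dexamethasone (2 µg/ml) and triiodothyronine (1 nM) and then kept for 5 days in medium with the same insulin and triiodothyronine, so that the controls received every agent of the differentiation cocktail. The RNA of a group was combined before labelling. The deposited design gives 2 samples for a pool and the methods give 3. Technical replicate arrays, A and B, were run for each pool on the ABI Mouse Genome Survey platform, 2 per pool. There was thus 1 pool per group, no test of NT-PGC-1α across cultures was possible, and each fold is given with its range over the 4 ways to set an array of 1 pool against an array of the other. The promoter that drove the NT-PGC-1α construct and whether the line was 1 clone are not given in the sources used here.

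ABC transporters use ATP to move substrates across membranes. Members of the A subfamily carry lipids, those of the B subfamily range from the drug efflux pump P-glycoprotein to carriers of the mitochondrial inner membrane, and the G subfamily includes sterol and drug exporters. In adipocytes, whose lipid stores turn over continuously, transporters of this family are known mainly for the export of cholesterol and phospholipid. The family has 53 genes in RefSeq, counting Tap1, Tap2 and Cftr, and probes could be named for these 6 alone. The other 47 genes were not analysed here, so the 6 say nothing of the balance of the family as a whole.

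The overexpressed gene was higher in the pool labelled NT-PGC-1α. The listed probe of Ppargc1a (847307) gave normalized signals of 113.9 and 135.7 on the control arrays against 1078 and 713.9 with NT-PGC-1α. These control signals stood at percentiles 5.23 and 9.81 of their arrays, so the size of the rise rests on signals near the bottom. The other Ppargc1a probe (747719) was 1.63-fold higher with a range of 1.14 to 2.32. The control arrays differed 1.52-fold at that probe, and both pools were below the median of all probes. The median of all probes was 420.3 after quantile normalization of the log2 intensities. A probe was called where it differed by 1.5-fold or more and its arrays did not overlap between the groups, which held for 16.9% of all probes in the upward and 17.6% in the downward direction. The shares were 20.8% and 21.1% among probes with lower and 12.9% and 14.1% among probes with higher signals, split at the middle of the mean signals. By the same measure 4 of the 6 listed ABC transporter probes were higher and 2 were lower. Because that contrast chose the probes, nothing is read from these counts.

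Abcb8 encodes an ABC transporter of the mitochondrial inner membrane. Its probe (503593, identifier mCG16478.2) had normalized signals of 821.4 and 743.9 in the controls, against 2009 and 1890 with NT-PGC-1α. The groups did not overlap, and the signal was higher with NT-PGC-1α by 2.49-fold with a range of 2.30 to 2.70 over the pairings. Arrays A and B differed 1.10-fold for the control and 1.06-fold for NT-PGC-1α. The signal was above the median of all probes in both pools, so this increase did not start from a signal near the bottom of the array.

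Abcg3, a rodent relative of the drug exporter gene Abcg2 with little known function, showed the largest increase of the 6 under quantile normalization. Its probe (507999, mCG133600) rose from 166.7 and 170.2 on the control arrays to 637.0 and 524.1 with NT-PGC-1α. The groups did not overlap, and the fold was 3.43 with a range of 3.08 to 3.82. The control signals stood at the 17.7th and 18.5th percentile of their arrays, a part of the scale where no measure of background was available to call a probe detected. With every signal below the median of all probes raised to that median, the fold became 1.375, below the 1.5-fold threshold and the smallest of the 4 increases, of which that of Abcb8 was then the largest at 2.49-fold.

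Abca2, a transporter of late endosomes and lysosomes that takes part in sterol and sphingolipid handling, had the smallest change of the 6 (probe 446561, mCG18727.1). It gave 1490 and 1458 in the controls, compared with 2303 and 2582 for NT-PGC-1α, without overlap. The increase was 1.65-fold with a range of 1.55 to 1.77, near the 1.5-fold threshold. Without normalization across arrays the log2 difference was 0.47 in place of 0.73, and with median centring it was 0.49, both below the 1.5-fold threshold. With centring on the 75th percentile it was 0.73. Relative to the median of all probes, which that centring shifts, it was 0.51 or 1.43-fold, below the threshold. In all, 6 other scalings, offsets and filters kept the call of Abca2 and 2 lost it. This centring is counted among those that kept it, without removal of its shift.

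Abca3 carries phospholipids into lamellar bodies and is best known from the alveolar type II cells that make surfactant. Its listed probe (673839, mCG12818.2) gave 295.4 and 329.7 on the control arrays and 565.4 and 598.1 with NT-PGC-1α. The groups did not overlap and the fold was 1.86, with a range of 1.72 to 2.02. With signals below the median of all probes raised to it, the fold was 1.38, below the 1.5-fold threshold. The further probe (531579), which carries the same identifier together with a further identifier, mCG1051026, was not chosen for its values. It gave 1049 and 1141 on the control arrays and 995.0 and 869.9 with NT-PGC-1α. Again the groups did not overlap, but here the signal was lower with NT-PGC-1α, by 1.18-fold with a range of 1.05 to 1.31. This difference was about as large as that between arrays A and B, which was 1.09-fold for the control and 1.14-fold for NT-PGC-1α, and 71.7% of all probes had groups without overlap.

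The further probe of Abca3 thus did not share the increase of the listed one, and its own difference was small. Over all probes the median change in either direction was 1.32-fold. The mean of the log2 differences of the 2 Abca3 probes was 0.33, a 1.26-fold increase. The further probe was above the median of all probes on every array, and the listed probe was below it on the control arrays. Probe positions were not used here. In RefSeq Abca3 lies next to Abca17, a gene of the same subfamily whose span reaches into the window at the start of Abca3. Which of the genes the further identifier belongs to was not established. The other 5 genes had no further probe with their identifier, so their change rests on 1 probe each.

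**Figure D1:**
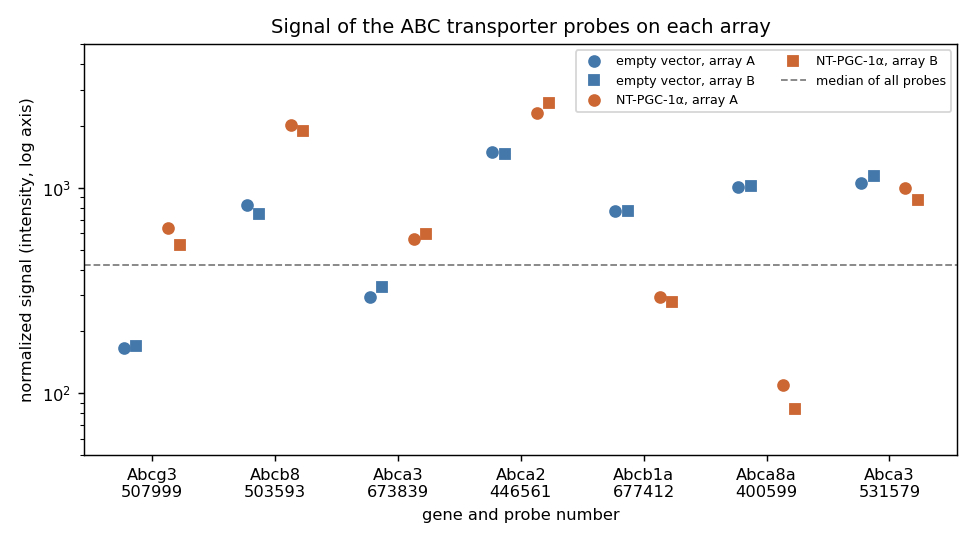
Normalized signal (y axis, log scale) of the 7 probes (x axis) on each of the 4 arrays, with circles for array A and squares for array B, and the median of all probes as a dashed line. The control (empty vector) and NT-PGC-1α arrays do not overlap for any of the 7 probes. The listed Abca3 probe is 1.86-fold higher with NT-PGC-1α, and the further one is lower by a small difference of 1.18-fold.

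Abcb1a encodes P-glycoprotein, the efflux pump for many drugs and lipophilic compounds. Its probe (677412, mCG1178.1) fell from 774.2 and 766.6 in the controls to 294.6 and 278.3 with NT-PGC-1α. The arrays within each pool were close, 1.01-fold apart for the control and 1.06-fold for NT-PGC-1α, and the groups did not overlap. The signal was 2.69-fold lower with NT-PGC-1α, and its range of 2.60 to 2.78 was the narrowest of the 6 in relation to the change. In RefSeq the gene lies next to its close relatives Abcb1b and Abcb4, and whether the probe separates their transcripts was not tested.

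Abca8a, a lipid transporter of the ABCA subfamily, had the largest change of the 6 under quantile normalization. Its probe (400599, mCG118044.1) gave 1006 and 1023 on the control arrays and 110.4 and 83.91 with NT-PGC-1α. The control arrays were 1.02-fold apart and those with NT-PGC-1α 1.32-fold apart, and the groups did not overlap. The signal was 10.5-fold lower with NT-PGC-1α, with a range of 9.11 to 12.2. Only 51 of the 33012 probes had a lower log2 difference. The 2 NT-PGC-1α signals stood at percentiles 4.61 and 1.4 of their arrays, so that the size of the fold rests on signals near the bottom of the arrays. An offset at the 5th percentile of all intensities, added before the log2 step, lowered it to 5.39-fold, a floor of 200 to 5.07-fold and a floor at the median of all probes to 2.41-fold, which is less than the 2.49-fold change of Abcb8 under that floor. In RefSeq the gene lies between Abca8b and Abca9, with Abca6 and Abca5 beyond, and whether the probe separates these relatives was not tested.

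**Figure D2:**
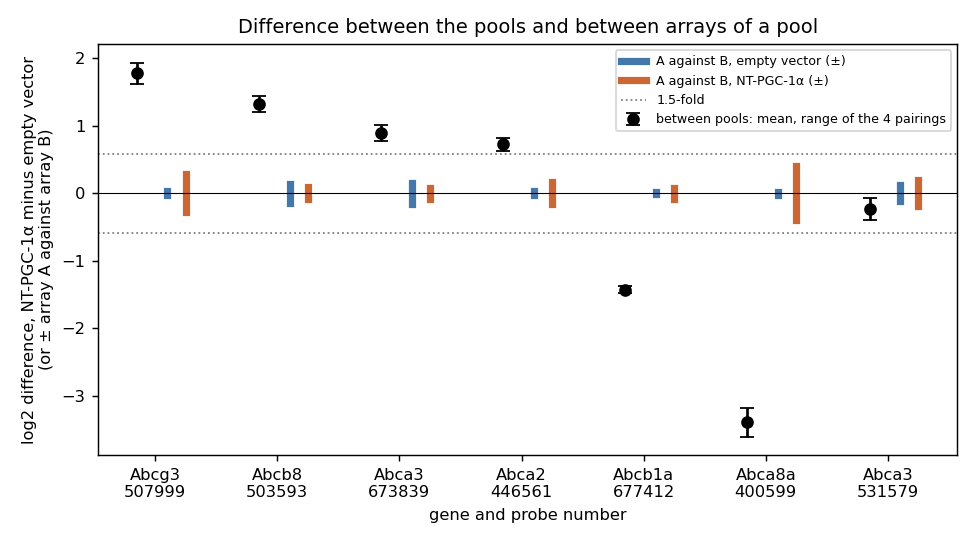
Log2 difference between the pools (black points, y axis) of the 7 probes, with bars for the range over the 4 pairings of arrays, beside the A to B difference within the control (blue) and NT-PGC-1α (orange) pools, drawn upward and downward from 0. The 6 listed probes exceed 1.5-fold (dotted), from 1.65-fold higher for Abca2 to 10.5-fold lower for Abca8a, and the further Abca3 probe does not.

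How far 2 arrays of the same pool differ depends on the signal, and the 7 probes lay in different parts of that scale. All probes were divided into 10 equal groups by their mean signal over the 4 arrays. Abca2 fell in the eighth group, with mean signals of 1817 to 5621, where the paired NT-PGC-1α arrays lay within 1.19-fold for 95% of probes. Abcb8 and the further Abca3 probe fell in the seventh, where the corresponding figure was 1.52-fold. Abcb1a and the listed Abca3 probe fell in the sixth, where it was 1.89-fold for NT-PGC-1α and 1.70-fold for the control. Abca8a and Abcg3 fell in the fifth, where it was 1.98-fold for NT-PGC-1α. For these genes the mean signal of each pool lay outside that group, so the figure describes neither pool. Abca8a had means of 1014 for the control and 96.3 for NT-PGC-1α, and Abcg3 of 168 and 578. The same held for Abcb1a in the sixth group, with means of 770.4 and 286.3. For Abca2 and the listed Abca3 probe the control mean lay outside the group, and for Abcb8 the NT-PGC-1α mean did. The figures between arrays describe repeats of the same RNA and say nothing of the spread between cultures. The listed probes were chosen for their change, so the folds are not judged against these figures.

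Probes in the sixth group were also those most often called, 28.9% of them higher and 30.4% lower by at least 1.5-fold without overlap. In the eighth group the shares were 8.03% and 10.6%. A change as large as that of Abca3 or larger in the same direction was seen in 10.04% of all probes, of Abca2 in 13.6%, of Abcb8 in 4.76%, of Abcb1a in 4.21%, of Abcg3 in 2.27% and of Abca8a in 0.158%. These shares pool all levels of signal. Abca2, at 0.7264, was just past the 95th percentile of log2 differences in its own group, 0.7256. So was Abcb8, at 1.318 against 1.308. Abca8a was beyond the 5th percentile of its group, and Abca3, Abcb1a and Abcg3 were inside these limits.

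**Figure D3:**
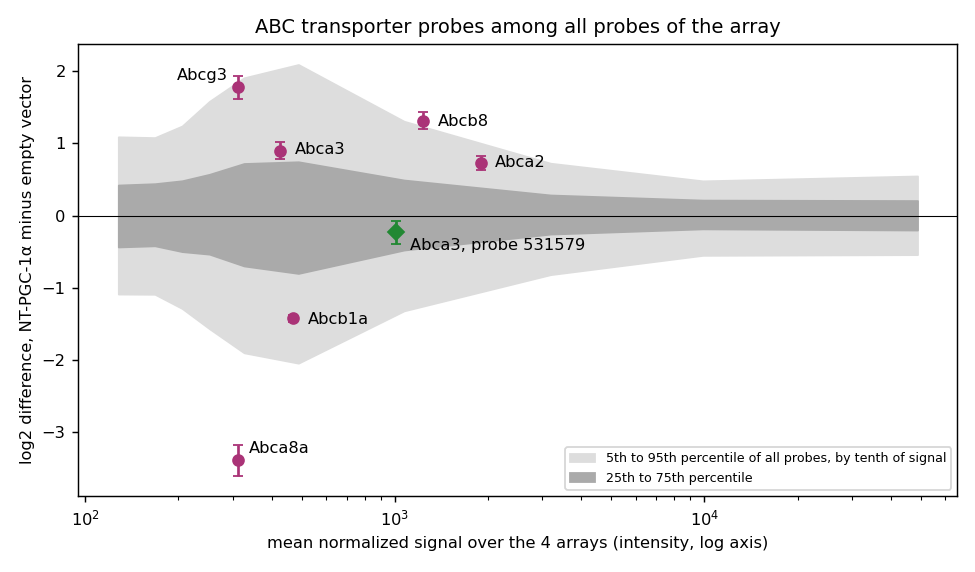
Log2 difference between the pools (y axis) against the mean normalized signal over the 4 arrays (x axis, log scale), with the 5th to 95th (light) and 25th to 75th (dark) percentiles of all 33012 probes in 10 groups of signal, and the 7 ABC transporter probes as points with bars for the range over the pairings. Abca8a lies far below the light band, Abcg3 lies inside it although it was 3.43-fold higher, and the further Abca3 probe (diamond) lies inside the dark band.

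**Figure D4:**
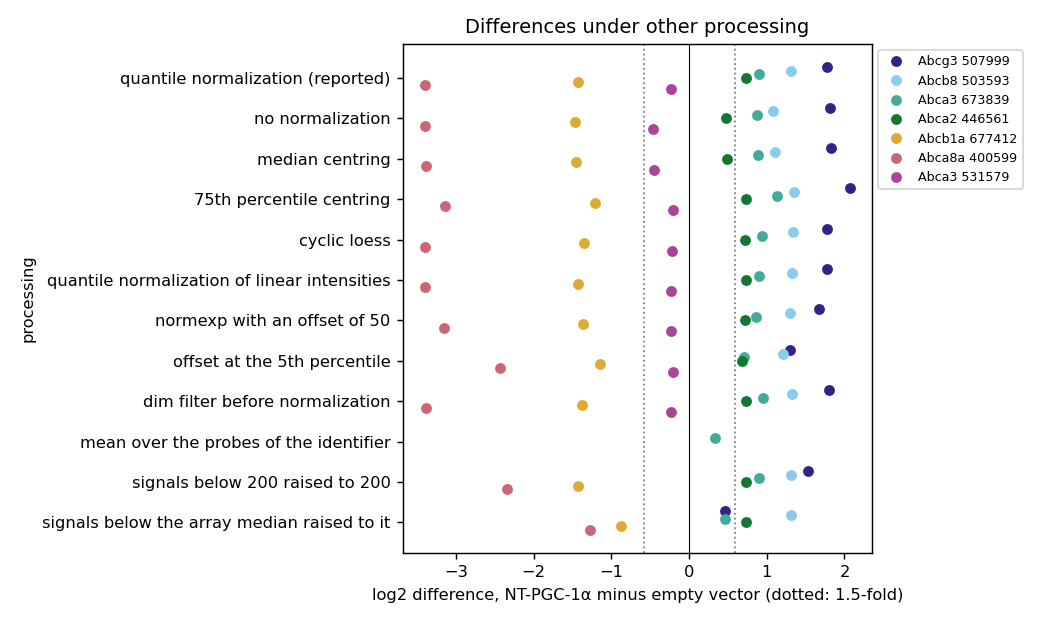
Log2 difference between the pools (x axis) of the 7 probes under quantile normalization (top) and other processing (further down the y axis), with dotted lines at 1.5-fold. No probe changes sides of 0, Abca8a moves the most with an offset or a floor, and Abca2 falls below 1.5-fold without normalization and with median centring, as do Abcg3 and the listed Abca3 probe with the floor at the median of all probes.

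The RefSeq promoter table (GRCm38.p6) holds a window of 300 bases, from 250 before to 50 after the annotated start, for 5 of the 6 genes: Abca2, Abca3, Abca8a, Abcb1a and Abcg3. Abcb8, whose signal was higher in the NT-PGC-1α pool, had no window. The windows of the other genes with a higher signal in that pool were rich in G and C. The share was 69.7% for Abca3, 65.3% for Abcg3 and 65.0% for Abca2. The windows of the genes with a lower signal were not, with 44.3% for Abca8a and 40.3% for Abcb1a. Whether the annotated starts are those used in these cells was not tested. Over all 32851 windows of the table the median was 52.7%, with quartiles of 45.7% and 61.7%. CG dinucleotides (CpG) numbered 29 in the window of Abca3, 26 in Abca2, 11 in Abcg3, 4 in Abca8a and 2 in Abcb1a, against a median of 7. The bases before the start are shown for Abca2, Abcb1a and Abcg3. A stretch was kept only where enough bases lay before the annotated gene and Abca17 did not overlap, which left out Abca3 and Abca8a. Of those shown, Abca2 has many and Abcb1a few CpG and they moved in opposite directions. Abcg3 had the largest increase under quantile normalization. The stretches read 5′ to 3′ on the strand of the gene, stop where the annotated gene begins, and have each CG in capitals. The stretch of Abca2 is chr2:25428349-25428598 (plus strand), that of Abcg3 is chr5:104982812-104982967 (minus strand) and that of Abcb1a is chr5:8566841-8567090 (plus strand).
Abca2: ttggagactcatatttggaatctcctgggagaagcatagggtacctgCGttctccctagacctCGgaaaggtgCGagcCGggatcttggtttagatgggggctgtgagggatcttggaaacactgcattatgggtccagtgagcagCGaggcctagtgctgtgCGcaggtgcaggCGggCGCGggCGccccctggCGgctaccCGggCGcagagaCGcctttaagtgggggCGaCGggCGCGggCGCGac
Abcg3: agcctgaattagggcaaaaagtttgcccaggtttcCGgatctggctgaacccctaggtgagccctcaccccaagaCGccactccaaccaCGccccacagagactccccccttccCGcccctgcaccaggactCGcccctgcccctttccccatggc
Abcb1a: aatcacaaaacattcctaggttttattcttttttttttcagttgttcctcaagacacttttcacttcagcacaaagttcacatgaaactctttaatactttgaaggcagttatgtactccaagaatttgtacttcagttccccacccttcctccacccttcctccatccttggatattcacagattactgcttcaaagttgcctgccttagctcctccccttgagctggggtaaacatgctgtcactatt

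The stretch of Abca2 holds 20 CG in 250 bases and that of Abcg3 5 in 156 bases, while that of Abcb1a holds 0 in 250 bases and lies within the annotated span of a neighbouring gene, Rundc3b. The nuclear receptor motif AGGTCA was searched on both strands because PGC-1α proteins act through nuclear receptors. It was found in 0 of the 5 windows and in 16.3% of all windows, which says only that these letters are not in these windows. The GC box GGGCGG, a motif chosen after the sequences were seen, was found on either strand in the windows of Abca2, Abca3 and Abcg3 and in 35.7% of all windows. Part of this motif is itself a CG, so the count overlaps with the CpG content. With 5 genes these are descriptions, and their part in the measured changes was not tested.

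**Figure D5:**
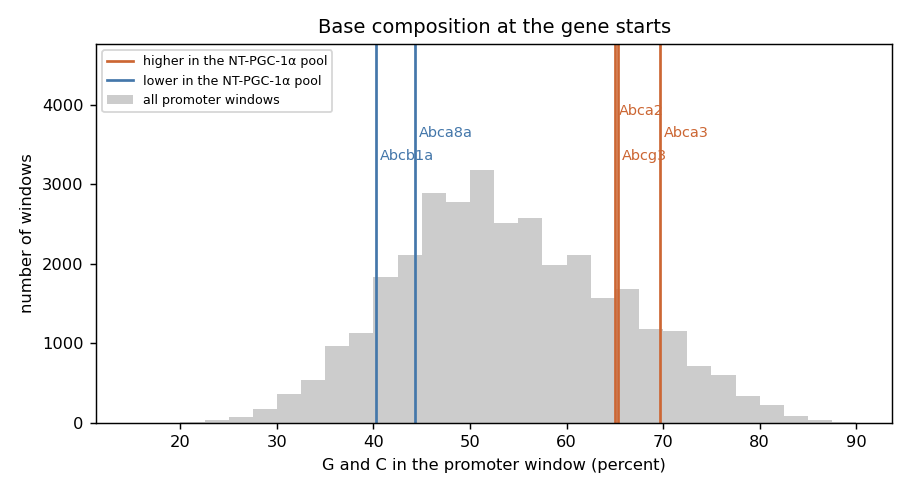
Share of G and C in the promoter window (x axis, percent) of all 32851 RefSeq windows (grey bars, number of windows on the y axis) and of the 5 genes with a window (lines). The 3 genes shown with a higher signal in the NT-PGC-1α pool lie between 65.0% and 69.7%, and the 2 with a lower signal at 40.3% and 44.3%. Abcb8, which was also higher, had no window.

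Adipocyte and other cell type markers were measured only in part. Of 11 adipocyte markers 2 had a named probe, Retn, which was 1.72-fold higher with NT-PGC-1α, and Slc2a4, at 1.27-fold, which was not called, and their summed signal went from 46796 and 47049 to 58986 and 61404. Of 9 brown adipocyte markers, Ppargc1a and Ucp3 had a named probe. Ppargc1a is the overexpressed gene, so its rise says nothing of the cell type. Ucp3 gave 173.0 and 190.1 on the control arrays against 1018.5 and 1064.2 with NT-PGC-1α. Its control signals were below the median of all probes, 420.3, and no measure of background was available to call it detected there. Ucp1 and Cidea, the defining markers, were not analysed here. Of 6 preadipocyte or fibroblast markers, Col1a1 and Col3a1 had a named probe, with log2 differences of -0.67 and -0.59 and a summed signal of 401730 and 443740 against 268160 and 286720. Single markers of macrophages (Cd68, 2.43-fold lower, of 5 listed), muscle (Myog, 2.78-fold lower, of 4) and endothelium (Cdh5, 2.20-fold higher, of 2) also differed. None of these markers was at 0, but neither was any probe of the arrays, whose lowest deposited intensity was 24.2. This does not show that a marker was expressed. All of these probes are named only because the study listed them as changed on these arrays. The part of any shift in the cells in the values of the 6 genes was not tested, and in pooled RNA fewer cells of a type and less RNA per cell cannot be told apart. Of 22 regulators and partners of ABC transport, Ppara alone had a named probe. Its signals were 5616 and 5908 on the control arrays and 13902 and 13488 with NT-PGC-1α. Ppara too was named only from the study's list of changed probes.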

How the data were processed

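The values were the chemiluminescent intensity of each probe that the authors deposited on a linear scale, without normalization across arrays, from an Applied Biosystems analyzer. Whether background had been subtracted was not stated in the sources used here, and no quality flag entered. From these, log2 intensities of the 4 arrays were quantile normalized (limma 3.58.1, R 4.3.3), keeping every probe and adding no offset. Folds are antilogs of the change in mean log2 signal between pools. Other calculations used Python 3.11.15, numpy 2.4.6 and pandas 2.3.3, with matplotlib 3.10.9 for plots. Other scalings, offsets, a filter on dim probes, other fold thresholds and the omission of each array were also tried. The fold calculation was tested on simulated data with known changes.

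Symbols came from the study's list of changed probes, used for names (1342 probes), and from RefSeq accessions (293 more), which left 31377 probes without a symbol. Columns of fold changes and p-values in that list were not used. The members and gene lists were chosen with earlier results of these data known. Genes named are the 6, Ppargc1a, genes of the marker and regulator lists with a named probe, and the 3 named probes whose pattern over the arrays was most like each of the 6, of which 1 is not reported here. Protein sequences were not used here. Arrays A and B share 1 pool, so no p-value was computed, and the number of arrays limits the precision.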

Additional observations from a re-analysis of the deposited data

How the results depend on the processing

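Each of the 7 probes kept its direction in all 84 values recomputed with other scalings, offsets, a filter on dim probes or an array left out and, for the 6 listed probes, in 12 under floors at 200 and at the median of all probes, which were chosen after seeing the data. Leaving out an array gave 9.79-fold to 12.5-fold lower for Abca8a, 2.56-fold to 2.84-fold lower for Abcb1a, and 3.17-fold to 4.00-fold higher for Abcg3. Of the 6 genes, 4 were at least 1.5-fold higher and 2 lower without overlap whichever array was left out. Over all probes, with every array kept, 16.9% were called higher and 17.6% lower. The 6 listed probes were chosen for their change on these arrays. Their kept directions and calls were thus largely set by that choice, and nothing is read from them. The number higher was 3 without normalization and with median centring, 2 at a 2-fold threshold and 2 with the floor at the median, which ended the calls of Abca3 and Abcg3. The mean over both Abca3 probes was 1.26-fold higher. Centring on the 75th percentile moved the median log2 difference of all probes to 0.22 and the calls over all probes from 5565 higher and 5802 lower to 9227 and 3759. Relative to that shift Abcg3 was 3.62-fold, Abcb8 2.18-fold, Abca3 1.89-fold and Abca2 1.43-fold higher, and Abca8a was 10.3-fold and Abcb1a 2.70-fold lower. Abca2 was thus below 1.5-fold. With the filter on dim probes, which kept 17726 of the 33012 probes, 2887 were higher and 3054 lower. These counts thus have a smaller base than those over all probes. Over all probes 8661 were higher at a threshold of 0.32 on the log2 scale, and 2746 were higher and 2892 lower at 2-fold. Leaving out an array gave 5751 to 6198 higher and 5899 to 6328 lower. Matching identifiers without their version gave the same 7 probes. No other ABC transporter gene had a named probe, so its alternatives gave no value. No paired analysis was possible because each group was 1 RNA pool and arrays A and B of a pool are the same RNA. Without a measure of background, folds from low signals are less certain than the others.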

Other observations

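Among the 1635 probes with a symbol, those whose log2 signals, centred on each probe's own mean, lay nearest to the ABC transporter probes over the 4 arrays of the 2 pools were the following. With 2 pools such likeness is mostly a like fold, and no more is read from it. Nearest to Abca8a was Sfrp4, a secreted inhibitor of Wnt signalling, at a distance of 0.0835, with control signals of 4140 and 4423 against 453.3 and 334.9 for NT-PGC-1α, followed by Drd1ip and Lig3. Nearest to Abcb1a were Ccl21b, a chemokine, at a distance of 0.0377, Kcne1 and Klhl15, which were 2.65-fold to 2.75-fold lower. Among those nearest to Abcb8 were Drd1a, at a distance of 0.0423, and Slc26a6, an anion exchanger. Nearest to Abcg3 were Tcf15, at a distance of 0.0605, MP4 and Insm2. Nearest to Abca2 were Rps6ka5, a protein kinase, at a distance of 0.034, Phyh, the peroxisomal enzyme that starts phytanic acid breakdown, and Rhobtb2. Phyh rose from 60278 and 58646 to 95728 and 104470. Nearest to the listed Abca3 probe were Hkr3, at a distance of 0.0334, Mxi1 and Vps11.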
